A study of Triticum aestivum with 18 samples.

Results

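The embryo-like structures that the wheat cultivar Nanda had formed by Day 21 of microspore culture were compared with its Day 7 proembryos. The comparison took 3 libraries of each stage, 6 of the 18 libraries in the study, and every high-confidence gene of the annotation, with the values of its transcripts summed. Of 107892 such genes, 62692 had enough reads to be tested. Nanda and Sadash are spring cultivars of hexaploid bread wheat (Triticum aestivum), the former highly responsive to microspore culture and the latter recalcitrant. Spikes with microspores at the mid- to late-uninucleate stage were kept in the cold, and the microspores were isolated and cultured, so that a cold treatment is shared by all groups. RNA was sequenced from pooled microspores on Day 0, from multicellular proembryos still inside the pollen wall on Day 7, and from embryo-like structures, large and small ones together, on Day 21. Each library therefore averages over structures of different size and progress, and fewer cells of a type and less RNA per cell cannot be told apart. The labels call the libraries biological replicates without naming separate cultures, so p-values measure the spread between these samples.

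In microspore embryogenesis, a cell that was set to become pollen divides instead into a mass of embryo cells without fertilization. Some of the transcription factors known for starting embryos in Arabidopsis, among them BABY BOOM and LEAFY COTYLEDON1, act before or during the formation of the embryo. The later maturation program involves ABSCISIC ACID INSENSITIVE3, named VP1 in cereals. Maturing cereal embryos fill with storage globulins and oil bodies and make late embryogenesis abundant (LEA) proteins and antioxidants that protect drying tissue. Organ formation draws on other factors, such as the growth-regulating factors and the class III homeodomain-leucine zipper proteins.

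The 6 libraries held 11292925 to 16805896 counts of high-confidence genes on Day 7 and 15329431 to 16634295 on Day 21. Levels are CPM (counts relative to library size, with TMM scaling), listed in the order of replicates 1, 2 and 3. Calls needed a log2 fold change of 1 or more in either direction together with an adjusted p below 0.01 (edgeR's quasi-likelihood test, Benjamini-Hochberg over all tested genes, the 18 libraries in 1 fit), and "rose" and "fell" are used for called genes. On Day 7, Pearson's r across genes was 0.989 between replicates 1 and 2, 0.981 between 1 and 3 and 0.985 between 2 and 3, and on Day 21 it lay between 0.990 and 0.993. These coefficients run across genes, which are no independent replicates, and describe the libraries only.

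Replicate 3 of Day 7 stood apart. It was the highest of the Day 7 libraries in 58.6% of the genes that rose, against 25.9% of those that fell and 30.0% of those not called. In 69 rising genes that had at least 50 CPM on Day 21 and less than 1% of that in Day 7 replicates 1 and 2, replicate 3 held a median of 7.37% of the Day 21 level (quartiles 5.96% and 8.96%). These genes were picked for low values in replicates 1 and 2, a choice that favours a higher replicate 3. In the 353 rising genes with at least 100 CPM on Day 21, picked without regard to the Day 7 replicates, the gap was smaller. Day 7 replicates 1, 2 and 3 held medians of 29.2%, 29.9% and 33.9% of the Day 21 mean. The part of this library in the rises below was not tested, and results that rest on it are given with and without it.

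Between Day 7 and Day 21, 21375 genes (34.1% of those tested) changed. Of these, 9887 rose (15.8% of those tested) and 11488 fell (18.3%), while 41317 (65.9%) were not called. The libraries of the stages did not overlap in 9884 of the rising and 11377 of the falling genes, against 67.9% of all tested genes. Rising genes took 5.20%, 5.13% and 6.46% of the counts on Day 7 and 22.2%, 22.5% and 22.8% on Day 21. Falling genes went from 28.9%, 29.9% and 29.2% to 9.93%, 9.67% and 9.08%. In the fit of all libraries, large changes were more often downward. A log2 change of 6 or more was found in 1648 falling genes (14.3%), against 696 rising genes (7.04%). These counts include fitted values of genes without a count in 1 stage, and they include Day 7 replicate 3. Without this library, the 12 largest rises named below lay between 6.73 and 14.26, in place of 5.10 to 6.30. The 12 largest falls named below lay between -13.34 and -9.23, in place of -13.27 to -9.17. The range of the rises without this library, and both ranges of the falls, include fitted values of genes without a count in 1 stage. Such values are no measured sizes. The split between the directions depended on the setting. Upward calls made up 46.3% here, 51.9% with RLE and 50.4% with upper quartile scaling of the same counts, which turned the majority of calls upward. In DESeq2, the study's own test, upward calls made up 51.4%, and with the 6 compared libraries alone 50.6%. They made up 64.9% or 63.7% in limma fits on TPM, which changed both the test and the unit and shifted the median log2 fold change of all genes from -0.05 to 0.16 or 0.25. Without Day 7 replicate 3, 15.0% of the genes rose and 17.8% fell, and 8736 of the rising and 10568 of the falling genes were called in both fits.

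**Figure D1:**
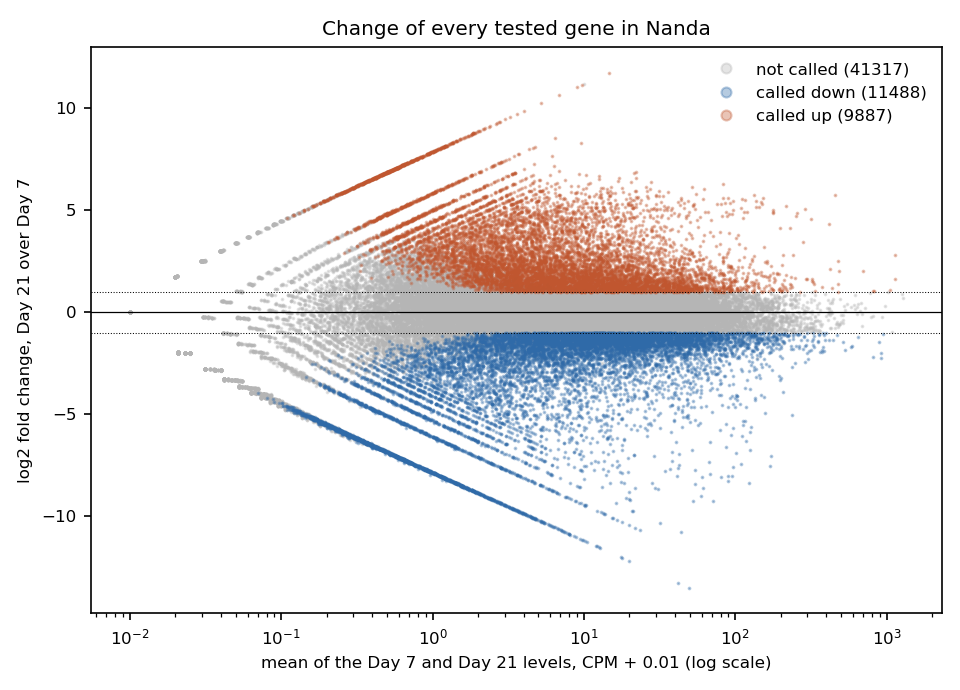
Each point is 1 of the 62692 tested genes, with the mean of its Day 7 and Day 21 levels on a log axis (CPM + 0.01) against its log2 fold change, Day 21 over Day 7; dotted lines mark the fold threshold. With all libraries in the fit, Day 7 replicate 3 included, the 11488 falling genes (blue) reach further from 0 than the 9887 rising ones (orange). The straight bands at low levels are genes with no or very few counts in 1 stage, whose fitted values are not measured sizes.

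Of 7391 called genes with at least 10 CPM on average and separate stages, 471 carried a description. Descriptions cover genes with the largest rises from Day 0 to Day 7 and transcription factors that changed between these stages, so the 12 largest rises and falls given here are the largest among those genes and not among all. TRAESCS2D02G154300 encodes a 1-Cys peroxiredoxin of the PER1 type, an antioxidant of cereal embryos and aleurone. It had 0.576, 0.396 and 49.4 CPM on Day 7 and 743, 953 and 980 CPM on Day 21 (log2 fold change 5.77 ± 1.04 SE, edgeR adjusted p = 0.00013). A second PER1 gene, TRAESCS2B02G174400, went from 0.128, 0.317 and 18.9 CPM to 219, 293 and 293 CPM. In both, Day 21 lay above every Day 7 library, and replicate 3 of Day 7 lay far above the other two. The cupincin-type vicilin TRAESCS5D02G440000, a storage globulin, rose from 0.0639, 0.158 and 15.3 CPM to 251, 189 and 237 CPM (5.53 ± 0.85, edgeR adjusted p = 2.5e-05). The vicilin TRAESCS4A02G135500 rose from 1.79, 2.22 and 14.9 CPM to 212, 193 and 229 CPM. The LEA protein TRAESCS4B02G175600 rose from 2.49, 1.66 and 19.0 CPM to 247, 257 and 295 CPM. These genes share the pattern of PER1, with Day 7 replicates 1 and 2 low, replicate 3 in between and the 3 Day 21 libraries high.

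TRAESCS2D02G364100, a peroxygenase of the caleosin type that sits on oil bodies, had 0.512, 1.19 and 21.9 CPM on Day 7 and 268, 281 and 334 CPM on Day 21. The metallothionein TRAESCS1B02G042200, a cysteine-rich metal-binding protein, had 0, 0.158 and 12.9 CPM and then 137, 207 and 159 CPM. TRAESCS4A02G219400, a heavy metal-associated isoprenylated protein, had 0, 0.158 and 5.90 CPM and then 114, 121 and 131 CPM. The largest fitted rise among these 12 was that of the glucose and ribitol dehydrogenase homolog TRAESCS1B02G101100, with 0, 0 and 6.89 CPM on Day 7 and 105, 205 and 185 CPM on Day 21 (6.30 ± 0.90, edgeR adjusted p = 3.6e-05). In DESeq2, this gene and the metallothionein kept the size of their change but had adjusted p = 0.017 and 0.034. The zinc finger gene TRAESCS1B02G285900, matched to WIP4, an Arabidopsis factor of root initiation in the embryo, went from 0.0639, 0.238 and 3.54 CPM to 53.0, 37.1 and 31.7 CPM. The others were the knot domain protein TRAESCS4B02G324000 and TRAESCS1D02G354300, named after the Ole e pollen allergens.

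In all 12 of these rises, replicate 3 was the highest Day 7 library, at 4.18% to 9.18% of the Day 21 mean. With it, their log2 fold changes lay between 5.10 and 6.30. Without it, they lay between 6.73 and 14.26, and each of the 12 was called. For TRAESCS2D02G154300 the change was then 10.79 and for TRAESCS5D02G440000 it was 10.94. The direction of these rises therefore did not rest on this library, but their size did.

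**Figure D2:**
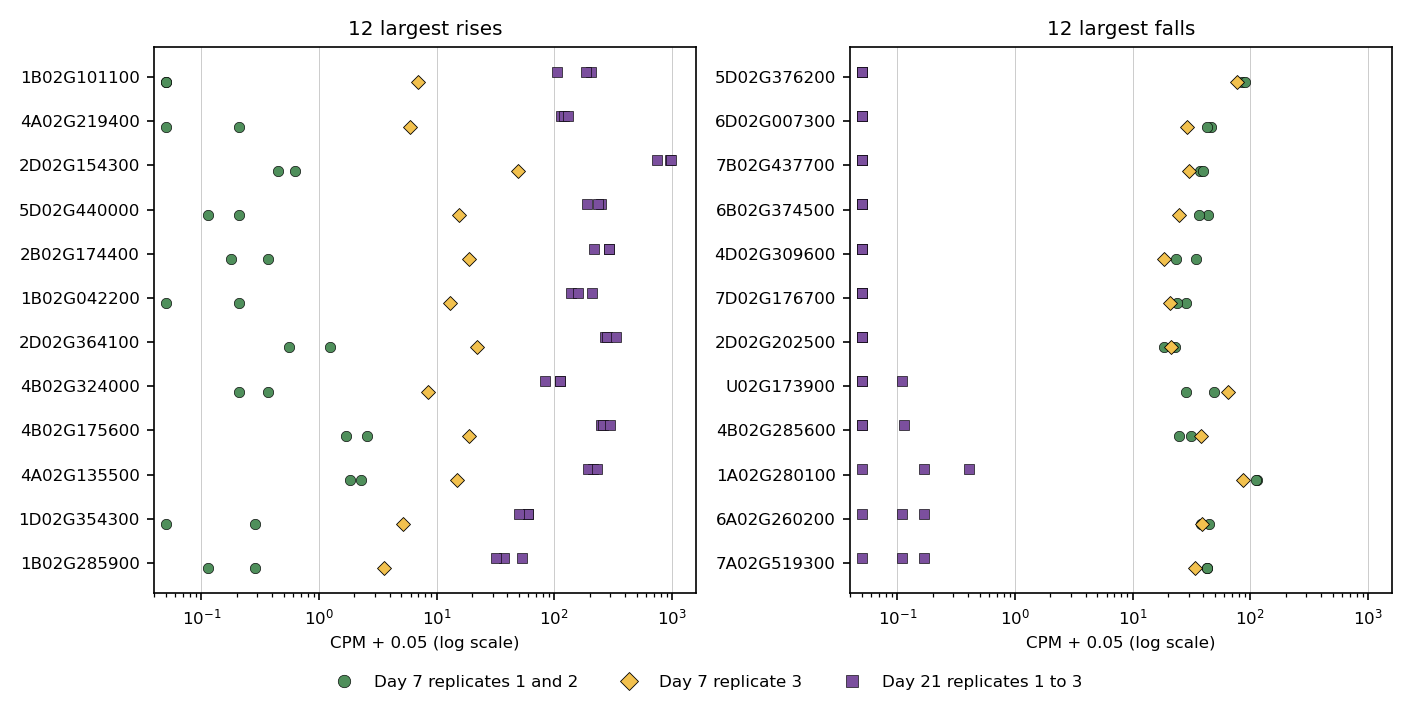
The level in each library, CPM + 0.05 on a log axis, for the 12 largest rises and the 12 largest falls among described genes, named without the prefix TRAESCS; green circles are Day 7 replicates 1 and 2, yellow diamonds Day 7 replicate 3 and purple squares the 3 Day 21 libraries. In each rise the diamond lies between the circles and the squares, and in the falls it lies with or close to the circles.

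The 12 largest falls among described genes ended at or near 0. TRAESCS5D02G376200, named as a pollen-specific leucine-rich repeat extensin, a cell wall protein of pollen tubes, had 84.7, 89.2 and 77.5 CPM on Day 7 and no counts on Day 21, at least 461-fold lower when each empty library is taken at 3 counts. TRAESCS7B02G437700, matched to rice ARGONAUTE 4A, which carries small RNAs in RNA-directed DNA methylation, had 37.0, 39.9 and 30.3 CPM and then no counts, at least 196-fold lower. The MADS-box gene TRAESCS7D02G176700, matched to rice MADS55 of the SVP clade, had 28.6, 23.9 and 20.8 CPM and then no counts, at least 134-fold lower. The Day 7 libraries of these genes lay within a narrow range. No counts on Day 21 were also found for TRAESCS6D02G007300, an immune-associated nucleotide-binding protein (at least 217-fold lower), the chaperone HSC70 gene TRAESCS6B02G374500 (at least 193-fold), the BTB/POZ-MATH gene TRAESCS4D02G309600, of a class that brings substrates to ubiquitin ligases (at least 139-fold), and the ubiquitin domain gene TRAESCS2D02G202500 (at least 115-fold).

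TRAESCSU02G173900, a cell wall invertase that splits sucrose outside the cell, had 49.0, 28.2 and 64.0 CPM on Day 7 and 0.0593, 0 and 0 CPM on Day 21 (log2 fold change -10.68 ± 0.82 SE, edgeR adjusted p = 7.7e-09). The alpha-amylase gene TRAESCS4B02G285600, matched to rice isozyme 3D, had 24.6, 31.5 and 37.8 CPM and then 0, 0 and 0.0636 CPM. TRAESCS1A02G280100, a stress-induced phosphoprotein, fell from 115, 113 and 86.2 CPM to 0.119, 0.354 and 0 CPM (-9.27 ± 0.43, edgeR adjusted p = 2.1e-11). The remaining ones of the 12 were TRAESCS6A02G260200, matched to the Arabidopsis helicase MAGATAMA 3, and TRAESCS7A02G519300, with an FBD domain. Replicate 3 was the highest Day 7 library in 2 of the 12 falls, and all of these falls were called without it.

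Seed storage proteins rose in most cases. This list, like the other functional lists below unless stated, holds genes with the largest rises from Day 0 to Day 7 in Nanda, and the transcription factor families hold members that had changed between these stages. Members were thus chosen on libraries that include the Day 7 ones, and a fall from that peak is no independent result. Counts of members called are to be read against all tested genes, of which 15.8% rose and 18.3% fell. Of its 8 members, 7 rose and 1 fell, with a median log2 fold change of 4.92, and of 10.06 without Day 7 replicate 3. The 3 cupincin-type copies rose together: TRAESCS5B02G434100 went from 0.128, 0.792 and 50.3 CPM to 699, 455 and 533 CPM, and TRAESCS5A02G432100 from 0.128, 0.792 and 51.2 CPM to 675, 358 and 448 CPM. The member that fell, TRAESCS1B02G158000 (21.0, 23.3 and 25.5 CPM to 2.97, 4.83 and 3.75 CPM), is matched to a chitinase. Summed over the list, the levels were 23.3, 27.6 and 198 CPM on Day 7 and 2293, 1524 and 1845 CPM on Day 21.

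LEA proteins and dehydrins, which bind water and shield proteins and membranes in drying cells, rose in 7 of 12 cases and fell in 2, with a median of 3.13. The group 3 LEA gene TRAESCS1D02G369200 had 16.4, 14.9 and 43.4 CPM on Day 7 and 411, 427 and 460 CPM on Day 21 (4.13 ± 0.39, edgeR adjusted p = 2.5e-07). TRAESCS4A02G129100 rose from 4.35, 2.85 and 25.8 CPM to 335, 342 and 357 CPM. The dehydrin TRAESCS6D02G332900, from a gene ontology (GO) list of the response to abscisic acid, rose from 7.23, 5.15 and 9.89 CPM to 61.8, 54.5 and 57.5 CPM. Its Day 7 libraries lay closer together than those of the vicilins.

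Lipid droplet proteins split, with 3 rising and 4 falling. The oleosin TRAESCS2D02G414800, which coats oil bodies of seeds, rose from 2.05, 2.22 and 30.7 CPM to 274, 387 and 363 CPM (4.91 ± 0.83, edgeR adjusted p = 0.0001). TRAESCS6D02G149300, an EF-hand protein matched to a peroxygenase, fell from 40.3, 73.0 and 67.6 CPM to 1.31, 2.48 and 1.59 CPM (-5.06 ± 0.64, edgeR adjusted p = 5.6e-06). TRAESCS5B02G061600, matched to a hydroxysteroid dehydrogenase of the steroleosin kind, fell from 17.3, 19.9 and 20.0 CPM to 4.87, 2.95 and 1.65 CPM. Neither direction depended on Day 7 replicate 3, without which 3 rose and 4 fell.

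Genes of the egg cell went the other way. EC1 peptides are secreted by the Arabidopsis egg cell at fertilization, and 5 of 5 EC1-type genes fell. TRAESCS7B02G351300 had 11.4, 8.64 and 7.26 CPM on Day 7 and no counts on Day 21, at least 50.1-fold lower. TRAESCS7D02G440500 (3.26, 2.38 and 2.99 CPM on Day 7) and TRAESCS7A02G451600 (2.81, 1.74 and 2.45 CPM) also had no counts on Day 21, at least 15.8-fold and 12.8-fold lower. The fitted median of the list was -8.11, and -3.98 with the 4 members that had no counts on Day 21 at their bounds. RKD factors, RWP-RK proteins that specify the egg cell in Arabidopsis, fell in 5 of 6 cases. TRAESCS7A02G135900 went from 6.97, 8.72 and 7.53 CPM to 0 in each library (at least 42.5-fold lower) and TRAESCS6B02G336200 from 4.67, 5.07 and 5.80 CPM to 0 in each library (at least 28.5-fold lower). Among the others, TRAESCS6A02G307500 changed by -4.71, TRAESCS6D02G286800 by -4.24 and TRAESCS6B02G336100 by -5.88. The sixth, TRAESCS6A02G307600, had 1.98, 1.74 and 1.72 CPM on Day 7 and 0.297, 0.413 and 0.127 CPM on Day 21, with edgeR adjusted p = 0.011.

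Pollen and anther genes fell in part. GAMYB-type MYB factors, which serve gibberellin signalling in anthers and aleurone, fell in 5 of 11 cases. TRAESCS1A02G308100 had 29.4, 35.1 and 34.6 CPM on Day 7 and 8.66, 9.14 and 8.52 CPM on Day 21 (-1.91 ± 0.15, edgeR adjusted p = 8e-09). TRAESCS1B02G318800 fell from 13.3, 15.8 and 11.6 CPM to 2.73, 4.48 and 4.20 CPM and TRAESCS7D02G373400 from 8.06, 7.92 and 6.53 CPM to 0, 0 and 0.0636 CPM. TPD1-type peptides, ligands that specify the tapetum of the anther in Arabidopsis, kept a clear level on Day 21. TRAESCS4A02G203700 had 114, 111 and 85.4 CPM on Day 7 and 13.1, 12.0 and 12.8 CPM on Day 21 (-3.03 ± 0.28, edgeR adjusted p = 1.8e-07), and TRAESCS4D02G104500 had 61.5, 69.8 and 60.1 CPM and then 15.4, 21.8 and 25.3 CPM. The male gametophyte list, with 3 of 8 members up and 2 down, had no common direction.

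Marker lists were summed in each library as a description. Their members were chosen on rises or changes from Day 0 to Day 7 in Nanda. The difference between these stages, and a peak on Day 7, therefore cannot check the labels. The 90 embryo and seed markers held 198 to 223 CPM on Day 0, 1396, 1429 and 1826 CPM on Day 7 and 5252, 4566 and 4946 CPM on Day 21, while 31 of them rose and 28 fell. Within them, seed storage proteins went from 23.3, 27.6 and 198 CPM on Day 7 to 2293, 1524 and 1845 CPM on Day 21. The LEA list went from 96.0, 82.2 and 182 CPM to 1200, 1229 and 1324 CPM, and lipid droplet proteins from 70.8, 105 and 154 CPM to 573, 701 and 725 CPM. AP2 factors (WRI/AIL) held 662, 674 and 728 CPM and then 766, 702 and 636 CPM. B3 factors (LAV-ABI3) held 391, 408.5 and 430 CPM and then 324, 309 and 330 CPM. NF-YB and WOX each held at most 85.9 CPM on Day 21. The 21 pollen and anther markers held 321 to 328 CPM on Day 0, 355, 371 and 337 CPM on Day 7 and 195, 206 and 193 CPM on Day 21, with 4 up and 8 down. The 11 egg cell markers held at most 0.200 CPM on Day 0, 48.6, 43.3 and 41.0 CPM on Day 7 and 0.949, 0.648 and 0.445 CPM on Day 21, where 7 or 8 of the 11 were at 0. Within the pollen and anther markers, the GAMYB-type list held 320 to 327 CPM on Day 0 and 24.3, 23.2 and 22.2 CPM on Day 21. The male gametophyte list and the list of pollen and anther names held at most 0.0501 and 0.976 CPM on Day 0. On Day 21 they held 111, 123 and 121 CPM and 88.2, 93.4 and 87.7 CPM. The Day 21 sum thus lay mostly in lists that were near 0 in the Day 0 microspores. The part of these markers in the falls above was not tested.

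**Figure D3:**
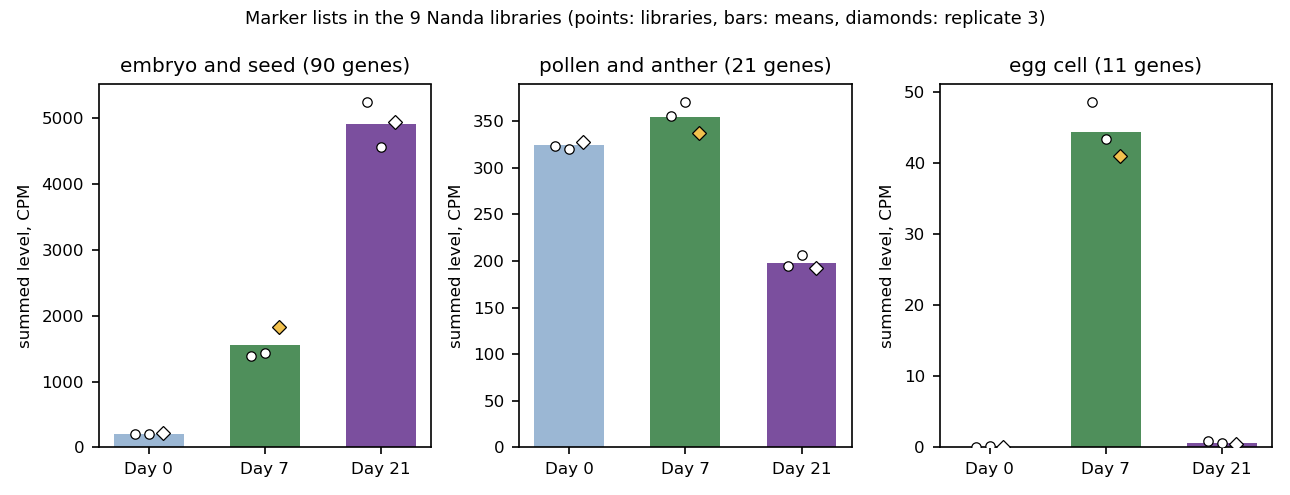
Summed levels in CPM of 3 marker lists in the 9 Nanda libraries; bars are means of 3 libraries, points are libraries, and diamonds are replicate 3, yellow on Day 7. The embryo and seed sum is higher at each later stage, up to 4566 to 5252 CPM. Its gain after Day 7 lies mostly in the seed storage, LEA and lipid droplet lists, and 28 of the 90 markers fell. Egg cell markers stand out on Day 7 alone among these 3 stages. Members were chosen on rises or changes from Day 0 to Day 7, so that step is no independent result.

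Embryo regulators of the B3 family (LAV-ABI3) changed in both directions. The 3 copies matched to rice LFL1, a relative of LEAFY COTYLEDON2 and FUSCA3, fell. TRAESCS3A02G249100 had 119, 122 and 137 CPM on Day 7 and 55.8, 49.2 and 54.0 CPM on Day 21 (-1.25 ± 0.16, edgeR adjusted p = 3e-06). TRAESCS3B02G278000 fell from 46.2, 38.0 and 41.8 CPM to 13.9, 9.67 and 11.3 CPM and TRAESCS3D02G249100 from 95.5, 102 and 84.0 CPM to 43.9, 36.5 and 42.0 CPM. In all 3 copies Day 7 and Day 21 were separate. The 3 copies of VP1, the cereal regulator of seed maturation, rose: TRAESCS3A02G417300 from 11.4, 13.5 and 20.9 CPM to 35.01, 36.1 and 40.2 CPM, TRAESCS3B02G452200 from 34.0, 35.6 and 48.3 CPM to 78.4, 83.6 and 83.9 CPM, and TRAESCS3D02G412800 from 20.7, 20.4 and 36.01 CPM to 72.1, 74.7 and 78.4 CPM (1.55 ± 0.25, edgeR adjusted p = 3.7e-05). For TRAESCS3B02G452200 the change of 1.06 was 0.97 without Day 7 replicate 1 and 1.00 without replicate 2, where it missed the threshold. In the limma fits on TPM, TRAESCS3A02G249100 and TRAESCS3D02G249100 changed by -0.89 and -0.83 with a pseudocount of 1 and were not called.

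The other B3 genes fell. TRAESCS7B02G230100, matched to rice IDEF1, a factor of the iron deficiency response, had 53.6, 64.9 and 53.5 CPM on Day 7 and 24.98, 19.3 and 20.3 CPM on Day 21 (-1.41 ± 0.17, edgeR adjusted p = 1.2e-06). A set of 3 genes matched to one uncharacterized rice B3 protein went to no counts: TRAESCS2D02G560000 from 4.796, 6.26 and 3.72 CPM (at least 27.1-fold lower), TRAESCS2B02G589800 from 2.75, 4.04 and 2.54 CPM (at least 17.1-fold) and TRAESCS2A02G554300 from 2.88, 2.46 and 1.90 CPM (at least 13.3-fold). In total, 3 of 10 members of the family rose and 7 fell. TRAESCS2B02G122500, the 1 listed gene of the VAL type, B3 repressors that silence seed genes in Arabidopsis seedlings, rose from 6.91, 6.66 and 9.98 CPM to 22.7, 26.5 and 27.3 CPM (1.71 ± 0.24, edgeR adjusted p = 8.4e-06).

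NF-YB subunits, the family of LEAFY COTYLEDON1, fell in 6 of 8 cases, with a median of -2.41. TRAESCS6A02G287300, matched to Arabidopsis NF-YB6, the LEC1-LIKE protein, had 26.6, 24.3 and 21.8 CPM on Day 7 and 5.52, 6.13 and 5.09 CPM on Day 21 (-2.12 ± 0.24, edgeR adjusted p = 4.9e-06). The related TRAESCS6B02G316600 had 12.3, 5.55 and 8.62 CPM and then 3.62, 4.01 and 2.03 CPM, and TRAESCS6D02G268000, at -0.40 ± 0.34, was not called (edgeR adjusted p = 0.339). Low-expressed members fell from 3.84, 4.99 and 5.26 CPM to 0.356, 0.354 and 0.254 CPM in TRAESCS2A02G173500 and from 5.44, 6.26 and 5.71 CPM to 0.356, 0.354 and 0.509 CPM in TRAESCS2B02G199800. The calls of TRAESCS2D02G180700 (-3.28) and TRAESCS6B02G316700 (-2.70) rested on few reads. Leaving out 1 library ended that of the former for each of the 6 libraries (-3.66 to -2.83) and that of the latter for each but Day 7 replicate 3 (-3.16 to -2.28 for those 5), and TRAESCS6B02G316600 missed the threshold without Day 7 replicate 1 (-1.13) or Day 21 replicate 3 (-1.21). With 1 library left out, 3 to 5 members were called. TRAESCS6A02G287400 was not called, at -0.65 ± 0.67.

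AP2 factors of the WRI/AIL group, to which BABY BOOM and the PLETHORA factors of embryo and root stem cells belong, rose in 9 of 30 cases and fell in 4, with a median of 0.68. The 3 BABY BOOM copies were not called: TRAESCS3A02G395500 had 61.4, 60.0 and 58.1 CPM on Day 7 and 50.1, 45.5 and 35.7 CPM on Day 21 (-0.45 ± 0.19), TRAESCS3B02G427300 changed by -0.30 ± 0.19 and TRAESCS3D02G389100 by 0.23 ± 0.19 (edgeR adjusted p = 0.058, 0.174 and 0.318). Copies matched to PLETHORA2 or AIL5 on chromosomes 7A, 7B and 7D fell. TRAESCS7D02G483200 had 127, 139 and 148 CPM and then 67.8, 58.8 and 54.0 CPM (-1.19 ± 0.21, edgeR adjusted p = 0.00013), TRAESCS7B02G401400 went from 113, 127 and 127 CPM to 47.8, 42.3 and 33.1 CPM, and TRAESCS7A02G495800 from 81.5, 76.5 and 80.5 CPM to 38.9, 29.4 and 26.6 CPM. On TPM with a pseudocount of 1, TRAESCS7A02G495800 (-0.96) and TRAESCS7D02G483200 (-0.82) were not called.

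A second set of AIL5-type copies differed among its members. TRAESCS2A02G505600 rose from 36.1, 41.9 and 45.2 CPM to 136, 119 and 120 CPM (1.61 ± 0.20, edgeR adjusted p = 2.3e-06), whereas TRAESCS2B02G534000 (38.9, 38.6 and 44.8 CPM, then 43.1, 39.1 and 38.5 CPM) and TRAESCS2D02G506500 (14.3, 17.0 and 16.2 CPM, then 19.4, 18.4 and 16.9 CPM) were not called. The Day 21 libraries of the A copy lay above all others of the set, while those of the B copy overlapped with Day 7. Genes matched to rice CRL5, an AINTEGUMENTA-type factor of crown root formation, rose from low levels. TRAESCS4B02G235900 had 0.128, 0 and 1.36 CPM on Day 7 and 13.2, 12.8 and 10.9 CPM on Day 21 (4.74 ± 0.71, edgeR adjusted p = 0.0001), TRAESCS2B02G268100 changed by 4.76, TRAESCS4A02G060400 by 4.29, TRAESCS4D02G237300 by 3.56 and TRAESCS2D02G256600 by 3.03. Of the AIL1 type, TRAESCS4B02G292900 rose from 8.25, 5.86 and 15.9 CPM to 65.7, 73.6 and 65.2 CPM, and TRAESCS4A02G011600 changed by 1.31. The AIL7-type TRAESCS4A02G123800 fell by 1.24 on the log2 scale, and TRAESCS1D02G059200, matched to rice APETALA2-like protein 1, changed by 1.85. The call of TRAESCS4A02G011600 was lost without any 1 library other than Day 7 replicate 3 (1.16 to 1.36), and that of TRAESCS1D02G059200 without Day 7 replicate 1 or 2 or Day 21 replicate 1 or 2 (1.54 to 1.82).

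WOX homeobox factors, which set up stem cell and lateral domains of the embryo, rose in 2 of 15 cases (13.3%) and fell in 4 (26.7%). These shares are near the 15.8% and 18.3% of all tested genes and give the family no common direction. TRAESCS5B02G091000, matched to rice WOX5, had 42.8, 29.0 and 25.5 CPM on Day 7 and 4.69, 5.78 and 4.58 CPM on Day 21 (-2.69 ± 0.44, edgeR adjusted p = 5.1e-05). The D copy TRAESCS5D02G097400 fell from 7.03, 9.11 and 9.07 CPM to 0.890, 1.297 and 1.14 CPM, and the A copy TRAESCS5A02G085000, at -1.31 ± 0.52, was not called (edgeR adjusted p = 0.040). TRAESCS2B02G117900, matched to rice WOX11, a factor of crown root growth, rose from 4.41, 4.75 and 5.35 CPM to 28.1, 30.6 and 30.2 CPM (2.62 ± 0.41, edgeR adjusted p = 4.7e-05). TRAESCS3D02G335500, matched to rice WOX8, rose from 1.09, 1.35 and 0.816 CPM to 3.86, 3.48 and 3.94 CPM. The maize WOX3A-type genes TRAESCS5A02G157300 (1.22, 3.80 and 5.44 CPM on Day 7) and TRAESCS5D02G162600 (0.512, 2.22 and 5.99 CPM) had 0.0593 CPM in 1 library or no counts on Day 21. TRAESCS5D02G162600 was at least 16.0-fold lower, but its Day 7 libraries differed widely and it was not called without Day 7 replicate 3 (edgeR adjusted p = 0.014) or without any Day 21 library.

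Growth-regulating factors (GRF), which promote cell division in young organs, rose in 9 of 13 cases, with a median of 3.28, and 4 were not called. TRAESCS6D02G315700 had 0.448, 0 and 1.63 CPM on Day 7 and 18.9, 13.8 and 14.0 CPM on Day 21 (4.55 ± 0.64, edgeR adjusted p = 3e-05). TRAESCS4D02G020300 rose from 3.58, 3.33 and 3.72 CPM to 13.3, 12.8 and 13.4 CPM (1.89 ± 0.26, edgeR adjusted p = 8.9e-06), and TRAESCS4A02G291500 from 1.47, 1.11 and 1.45 CPM to 11.6, 13.4 and 14.5 CPM. In these 2 genes the Day 7 libraries agreed closely. The remaining ones changed by 5.04 (TRAESCS6B02G296900), 4.57 (TRAESCS2A02G435100), 4.31 (TRAESCS6D02G245300), 3.94 (TRAESCS4A02G255000), 3.50 (TRAESCS6A02G269600) and 1.64 (TRAESCS4D02G059600). Leaving out any 1 library other than Day 7 replicate 3 ended the call of TRAESCS4D02G059600 (1.44 to 1.69). A GRF6-type copy with a high Day 7 level, TRAESCS4B02G060000, had 15.2, 22.9 and 18.7 CPM and then 26.0, 24.2 and 21.0 CPM and was not called.

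**Figure D4:**
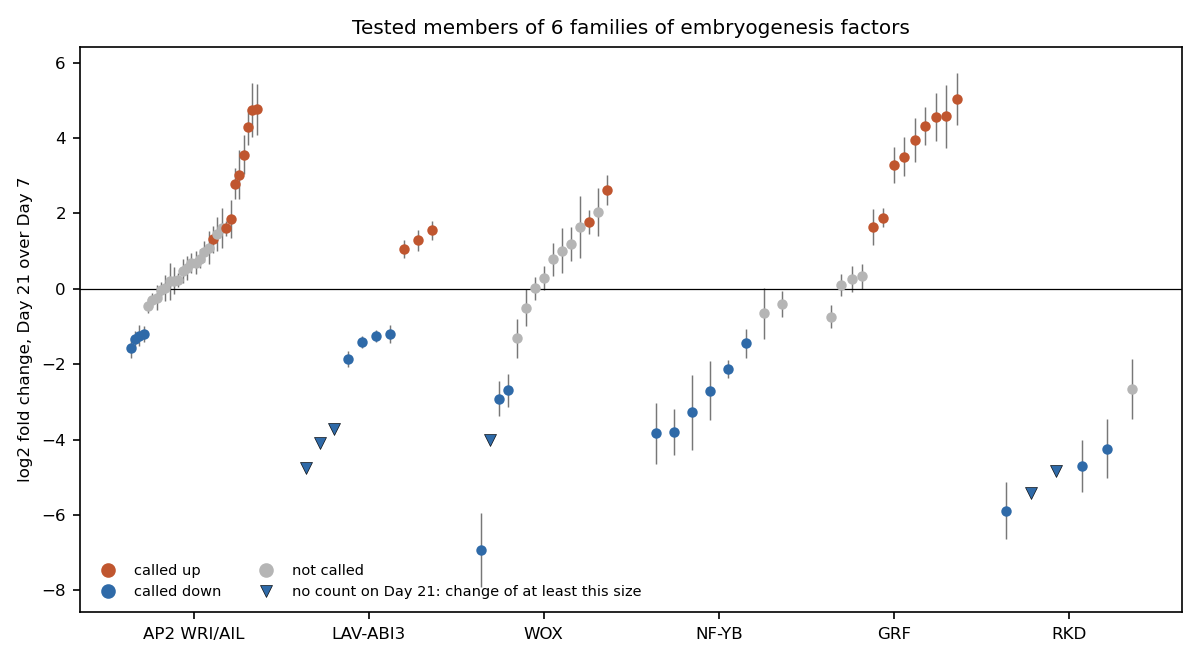
Log2 fold change, Day 21 over Day 7, of every tested member of 6 families, ordered within each family; circles with bars are fitted values ± SE, and triangles are members without a count on Day 21, placed at the smallest change that 3 counts per library allow. GRF members lie at or above 0 except for 1 not called, those of RKD and NF-YB lie below 0, and the other 3 families hold called members on both sides.

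Class III HD-ZIP proteins, which set the upper side of leaves and the shoot meristem, rose in 6 of 9 cases and fell in 1. The 3 copies matched to rice HOX33 rose together: TRAESCS5A02G043400 from 49.6, 49.99 and 50.7 CPM to 150, 132 and 125 CPM (1.44 ± 0.17, edgeR adjusted p = 1.1e-06), TRAESCS5B02G047200 from 30.5, 27.7 and 32.4 CPM to 145, 121 and 119 CPM, and TRAESCS5D02G052300 from 47.6, 38.4 and 49.7 CPM to 157, 129 and 123 CPM. Of 47 GRAS proteins, a family that includes regulators of gibberellin response and root patterning, 26 rose and 1 fell (median 1.31). TRAESCS2D02G198200, matched to a chitin-inducible gibberellin-responsive protein, went from 19.8, 17.7 and 24.7 CPM to 121, 75.3 and 55.4 CPM (2.02 ± 0.42, edgeR adjusted p = 0.00054). Its Day 21 libraries were spread more widely than its Day 7 libraries.

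Among larger families, 36 of 105 bHLH genes rose and 14 fell, and 16 of 54 bZIP genes rose and 6 fell. The bZIP gene TRAESCS7B02G391800, matched to rice RISBZ5, fell from 53.1, 80.3 and 86.3 CPM to 2.55, 3.65 and 3.12 CPM (-4.55 ± 0.66, edgeR adjusted p = 1.5e-05). MADS-box genes fell in 21 of 48 cases and rose in 3. One that rose, TRAESCS3D02G284200, matched to rice MADS32, went from 1.41, 2.93 and 8.62 CPM to 59.6, 62.4 and 52.3 CPM (3.80 ± 0.42, edgeR adjusted p = 5.9e-07). Of 18 NAC genes 7 fell and 11 were not called, and TRAESCS3A02G339600, matched to rice NAC68, went from 124, 134 and 137 CPM to 22.1, 14.2 and 12.3 CPM. Of 36 AS2/LOB genes 11 fell and 1 rose.

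**Figure D5:**
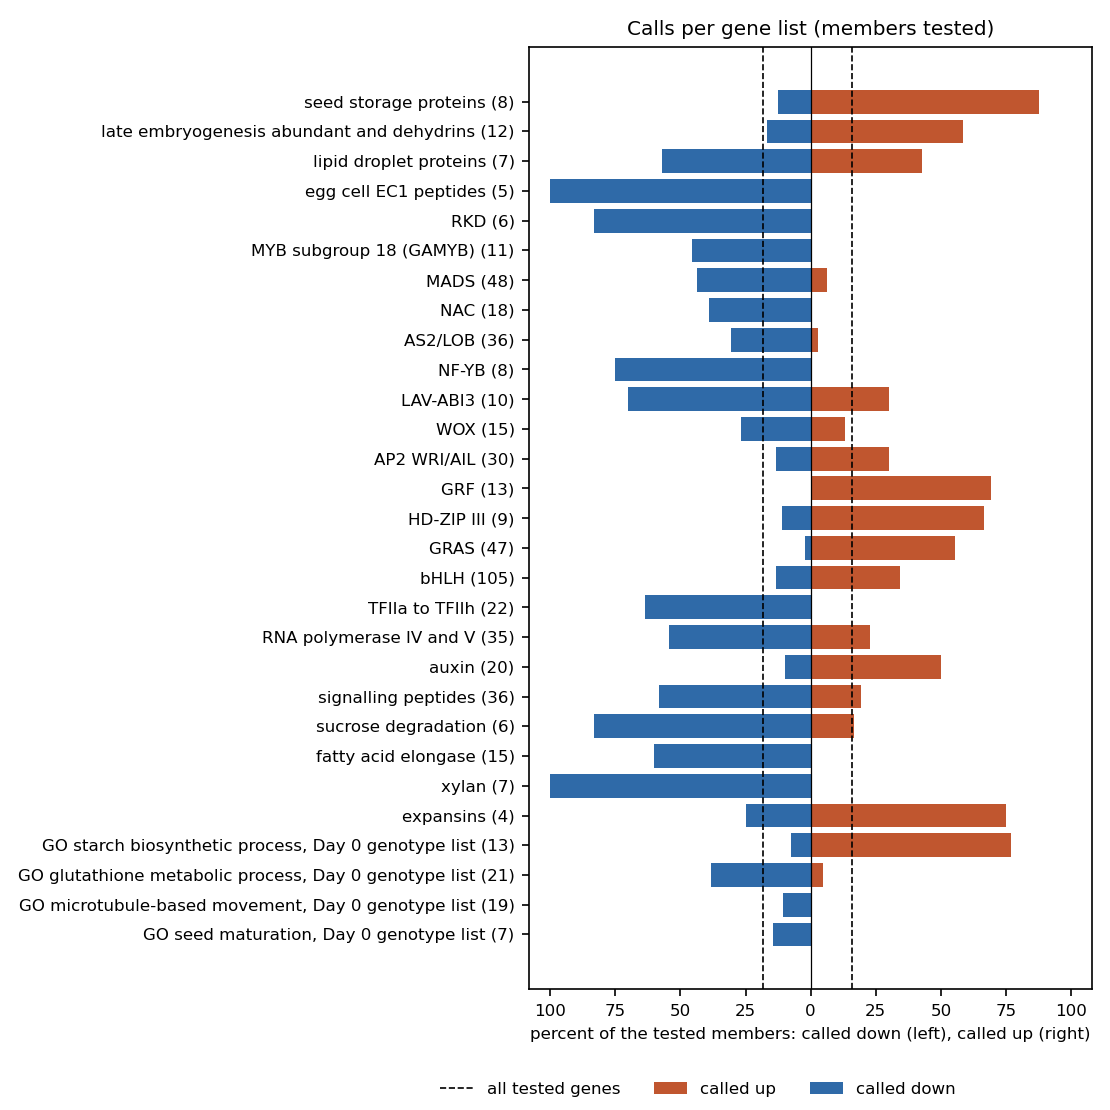
Percent of the tested members of 29 gene lists that were called down (blue, left) or up (orange, right), with the number tested in parentheses; dashed lines are the 18.3% and 15.8% of all tested genes called down and up. GRF, HD-ZIP III, GRAS and seed storage lists reach past the right line, and the EC1, RKD, NF-YB, TFII and xylan lists past the left one.

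Auxin genes of the list rose in 10 of 20 cases and fell in 2, with a median of 1.55. GH3 enzymes, which join auxin to amino acids, rose: TRAESCS3A02G301200 from 6.39, 3.72 and 11.2 CPM to 79.7, 58.2 and 62.0 CPM (3.24 ± 0.46, edgeR adjusted p = 1.9e-05) and its B copy TRAESCS3B02G335300 from 3.58, 2.06 and 11.0 CPM to 74.7, 57.1 and 58.0 CPM. In both copies Day 21 lay above each Day 7 library. Abscisic acid genes split, with 3 of 12 up and 5 down. The receptor gene TRAESCS7D02G364600 of the PYL9 type fell from 17.9, 17.3 and 28.2 CPM to 2.49, 3.65 and 3.37 CPM (-2.73 ± 0.55, edgeR adjusted p = 0.00041).

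Starch, cell wall and phenylpropanoid lists differed in direction. The GO list of starch biosynthesis that shares no library with this comparison, since it was chosen between the cultivars on Day 0, had 10 of 13 members up and 1 down (median 1.53). Among the other lists chosen in that way, 8 of 21 glutathione genes fell and 1 rose, 2 of 19 microtubule movement genes fell, and 1 of 7 seed maturation genes fell. The shares that fell were 38.1%, 10.5% and 14.3%, against 18.3% of all tested genes. A starch list chosen on its fall from Day 0 to Day 7 had 8 of 17 members up and 3 down, and this choice favours a rise. In TRAESCS1B02G449700, placed by its GO terms in starch synthesis, the levels were 31.8, 32.3 and 46.2 CPM on Day 7 and 133, 149 and 162 CPM on Day 21 (2.01 ± 0.22, edgeR adjusted p = 5.3e-07). Cellulose biosynthesis genes from the list chosen on the rise between Day 0 and Day 7 went further up in 17 of 21 cases and fell in 2. TRAESCS7D02G183600 rose from 45.3, 43.1 and 50.8 CPM to 166, 173 and 199 CPM (1.95 ± 0.16, edgeR adjusted p = 1.8e-08) and TRAESCS7A02G182200 from 26.4, 25.4 and 39.2 CPM to 165, 178 and 199 CPM. Phenylalanine catabolism, the entry to lignin and other phenylpropanoids, had 13 of 14 members up in the list chosen between the cultivars on Day 21. That list shares the Day 21 libraries and was chosen for higher levels there in Nanda, which favours a rise. In it, TRAESCS6A02G222800 went from 15.3, 18.1 and 34.2 CPM to 140, 150 and 138 CPM. TRAESCS2D02G204700 of the same process went from 4.73, 4.52 and 16.5 CPM to 164, 130 and 88.6 CPM. Other lists of the wall and of phenylpropanoids did not share this direction: 1 of 8 extensins rose and 4 fell, 2 of 15 pectin genes rose and 4 fell, 2 of 10 xyloglucan genes rose and 2 fell, and 2 of 6 monolignol genes rose and 3 fell. These lists were chosen on a rise from Day 0 to Day 7, which favours a fall, so the contrast is no independent result. Of the pectin genes 13.3% rose and 26.7% fell, and of the xyloglucan genes 20.0% each, against 15.8% and 18.3% of all tested genes. The expansin TRAESCS6A02G307900, a wall-loosening protein, rose from 9.08, 6.81 and 19.9 CPM to 96.9, 89.2 and 68.0 CPM.

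Of 29 cutin and suberin genes, 4 rose (13.8%), 8 fell (27.6%) and 17 were not called, against 15.8% and 18.3% of all tested genes. Their median was -0.38, and 6 were called down without Day 7 replicate 3. Fatty acid elongase genes, which make the long chains of waxes, fell in 9 of 15 cases, and 6 were called down without Day 7 replicate 3. TRAESCS4D02G296400, matched to the Arabidopsis ketoacyl-CoA synthase KCS10, had 225, 170 and 250 CPM on Day 7 and 88.8, 91.1 and 78.3 CPM on Day 21 (-1.32 ± 0.30, edgeR adjusted p = 0.00098). The fatty acyl-CoA reductase TRAESCS4D02G008300, of a class that makes fatty alcohols for waxes and the pollen wall, fell from 264, 249 and 289 CPM to 98.3, 84.2 and 83.0 CPM. The 7 listed xylan genes fell, and 4 were called down without Day 7 replicate 3. Of 6 sucrose-degrading enzymes 5 fell, led by the cell wall invertase TRAESCS3B02G028500 with 58.8, 56.7 and 58.8 CPM on Day 7 and 0.890, 0.118 and 0.254 CPM on Day 21 (-7.07 ± 0.53, edgeR adjusted p = 1.9e-08). Small signalling peptides fell in 21 of 36 cases and rose in 7, with a fitted median of -5.24 and one of -3.65 with members at 0 in 1 stage at their bounds.

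General transcription factors of RNA polymerase II (TFIIa to TFIIh) fell in 14 of 22 cases, and the other 8 were not called. Subunits of RNA polymerases IV and V, which make the transcripts for RNA-directed DNA methylation, fell in 19 of 35 cases and rose in 8. Of 26 RNA polymerase II subunits 2 rose and 11 fell. TRAESCS7A02G321100, the second-largest subunit of these polymerases, had 109, 114 and 99.1 CPM on Day 7 and 15.6, 14.5 and 14.3 CPM on Day 21 (-2.85 ± 0.15, edgeR adjusted p = 1e-10). TRAESCS6A02G123800, the largest subunit of polymerase V, went the other way, from 60.3, 69.4 and 71.3 CPM to 190, 173 and 203 CPM (1.49 ± 0.14, edgeR adjusted p = 8.1e-08). TRAESCS2A02G558100, a match of RPB1, which forms the catalytic core of RNA polymerase II, fell from 143, 162 and 133 CPM to 12.8, 13.3 and 12.8 CPM (-3.50 ± 0.18, edgeR adjusted p = 6.6e-11). Nucleosome assembly genes of the list chosen on their rise from Day 0 to Day 7 fell in 14 of 21 cases, and in 9 to 14 with 1 library left out.

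The study also drew up GO lists from this same contrast, so that the direction of their members is fixed by the choice, and the levels serve as a description. Water transport genes had a fitted median of 6.02, and 4.99 with members at 0 in 1 stage at their bounds, and TRAESCS6B02G450000 had 0.128, 0.475 and 2.63 CPM on Day 7 and 48.4, 70.9 and 64.3 CPM on Day 21, with TRAESCS6D02G389400 at 0, 0 and 1.72 CPM and then 27.9, 43.5 and 34.4 CPM. Trehalose metabolism was represented by 3 copies of similar level: TRAESCS5A02G203500 had 203, 250 and 241 CPM and then 46.6, 23.3 and 28.9 CPM, TRAESCS5B02G202200 had 218, 258 and 246 CPM and then 47.9, 25.6 and 31.2 CPM, and TRAESCS5D02G210000 had 228, 279 and 267 CPM and then 62.2, 28.9 and 30.6 CPM. In the tricarboxylic acid cycle, TRAESCS3B02G265700 had 537, 502 and 427 CPM and then 130, 132 and 124 CPM, and TRAESCS3D02G237500 had 413, 387 and 296 CPM and then 109, 101 and 107 CPM. Each of these 5 genes had its stages separate, with the larger relative spread on Day 21 in the trehalose copies.

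The lists of falling genes held members that all but disappeared. TRAESCS5B02G509400, a protein folding gene, had 57.5, 38.8 and 30.9 CPM on Day 7 and 0.356, 0.0589 and 0.572 CPM on Day 21. The translation genes TRAESCS1D02G228700 (20.1, 23.2 and 17.4 CPM, then 0, 0 and 0.0636 CPM) and TRAESCS1B02G241200 (17.2, 17.3 and 13.6 CPM, then 0.0593, 0.0589 and 0 CPM) did so too. In nucleosome assembly, TRAESCS2B02G415900 kept 35.9, 35.7 and 34.3 CPM of 121, 144 and 154 CPM.

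Of the 5 most abundant genes of Day 7, 4 fell. A set of 3 copies annotated in part with ADP catabolism and glycolysis led them: TRAESCS6B02G243700 had 1564, 1587 and 1428 CPM and then 391, 284 and 280 CPM (-2.26 ± 0.13, edgeR adjusted p = 3.3e-10), TRAESCS6D02G196300 went from 1457, 1546 and 1432 CPM to 419, 343 and 349 CPM, and TRAESCS6A02G213700 changed by -2.18. TRAESCS5A02G015000 changed by -1.47, and TRAESCS5D02G020900 changed by -0.95, below the fold threshold, with -1.01 and a call without Day 7 replicate 3 and -1.02 and a call without Day 21 replicate 1. On Day 21 the most abundant gene was TRAESCS4D02G140800, which rose from 297, 253 and 294 CPM to 2001, 1958 and 2014 CPM (2.82 ± 0.25, edgeR adjusted p = 4.9e-08) and is not described in the tables used here. TRAESCS1D02G353100, annotated with microtubule organization, changed by 1.62, and TRAESCS2D02G352900 rose from 561, 693 and 751 CPM to 1436, 1397 and 1460 CPM (log2 fold change 0.99 and not called without Day 7 replicate 1), whereas TRAESCS5A02G260600 and TRAESCS5D02G268000, at 0.88 and 0.70, did not reach the threshold. TRAESCS5A02G260600 was called without Day 7 replicate 1 (1.02). The 10 most abundant genes of a library took 1.17% ± 0.0361 (SD, n = 3) of its counts on Day 7 and 1.45% ± 0.00298 on Day 21 (two-sided exact permutation test, p = 0.1, the smallest that 3 against 3 can give).

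Some genes were without a count in 1 stage. With at least 10 CPM in each library of the other stage, 4 genes were on only on Day 21 and 34 only on Day 7, with lower bounds of 77.0-fold to 125-fold and 60.3-fold to 546-fold. Without Day 7 replicate 3, a setting chosen after seeing the data, 110 genes were on and 43 off. The largest were TRAESCS5B02G473500, with no counts on Day 7 and 24.9, 27.2 and 35.8 CPM on Day 21 (at least 125-fold higher), and TRAESCS7B02G083100, with 86.3, 122 and 89.6 CPM on Day 7 and no counts on Day 21 (at least 546-fold lower). Of the off genes 11 had a description. Among genes the study names, TRAESCS1D02G454400 had 523, 460 and 363 CPM on Day 7 and 256, 252 and 241 CPM on Day 21 (-0.85 ± 0.17, edgeR adjusted p = 0.00031), short of the fold threshold, and TRAESCS6A02G408200 was at 0 in 5 of the 6 libraries.

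Calls were spread over the 3 subgenomes of bread wheat, A, B and D. Genes of A rose in 16.0% and fell in 18.0% of cases, those of B in 15.5% and 18.7%, and those of D in 16.0% and 18.2%. Subgenome A took 32.6%, B 32.3% and D 34.2% of the assigned counts on Day 7, with differences on Day 21 of 0.0794, 0.0288 and -0.0970 percentage points (two-sided exact permutation tests over the libraries, p = 0.1, 0.5 and 0.3). Across chromosomes, 14.7% (1A) to 16.8% (7A) of the placed genes rose, and 15.9% (6A) to 19.8% (4D) fell. RSEM divides reads shared by near-identical copies among them, so single copies are less certain than their sums.

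Triads are sets of A, B and D copies of 1 ancestral gene. Only 1999 triads of the study's list were at hand, a small part of the triads that it reports as expressed. The counts describe this part, which the study had selected by expression, and not all triads of the genome. Of the 1967 triads with every copy tested, 1060 (53.9%) had no copy called. All 3 copies rose in 112 and fell in 254, 2 copies rose in 84 and fell in 163, and 1 copy rose in 90 and fell in 197. The SD of the log2 fold change among the 3 copies had a median of 0.26. The single SD over all copies was 1.29, an unlike measure that takes in fitted values of copies without counts in 1 stage. The part of reads shared among copies in the smaller value was not tested. Called copies had opposite directions in 7 triads. In one of them, singled out after its values were seen, TRAESCS5A02G383200 fell from 60.6, 88.7 and 83.8 CPM to 20.9, 18.4 and 17.2 CPM (-2.04 ± 0.31, edgeR adjusted p = 2.1e-05), TRAESCS5B02G387700 rose from 4.86, 8.40 and 13.6 CPM to 49.1, 51.2 and 44.9 CPM (2.45 ± 0.37, edgeR adjusted p = 2.3e-05), and TRAESCS5D02G392600 changed by -1.12 ± 0.35 without a call. In each of the 3 copies the libraries of Day 7 and Day 21 did not overlap.

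Whether a change in Nanda differed from that in Sadash was tested as the interaction of stage and cultivar, with the same thresholds, which 16.2% of all tested genes passed. The nucleosome assembly genes above, a list that shares the Day 7 libraries, differed in 21 of 21 cases, each with the lower change in Nanda. For TRAESCS2B02G415900 the difference was -2.77 (edgeR adjusted p = 2.8e-07), with Sadash at 57.3 CPM on Day 7 and 98.7 CPM on Day 21. Subunits of RNA polymerases IV and V differed in 16 of 35 cases in the same direction, as did 10 of 10 plastid translation genes. The nucleosome and plastid lists were chosen on a rise from Day 0 to Day 7 in Nanda, and the polymerase list on a change between these stages. A choice on a high Day 7 level in Nanda favours a lower later change there, so these counts are no independent result on the cultivars. Cellulose biosynthesis genes of the list chosen between the cultivars on Day 21 differed in 11 of 21 cases with the higher change in Nanda, a direction that this choice favours.

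Embryo factors were among the genes that differed. The LFL1 copies fell in Nanda, whereas the means in Sadash went from 38.0 to 72.8 CPM for TRAESCS3A02G249100 (difference -2.19, edgeR adjusted p = 1.2e-06). The NF-YB6-type TRAESCS6A02G287300 had 9.16 and 15.1 CPM in Sadash (difference -2.83, edgeR adjusted p = 2.5e-05), and the WOX5-type TRAESCS5B02G091000 had 8.51 and 8.85 CPM (difference -2.74, edgeR adjusted p = 0.0022). Opposite in sign was the largest RNA polymerase II subunit TRAESCS2A02G558100, which ended lower in Sadash, at 0.304 CPM from 150 CPM (difference 6.10, edgeR adjusted p = 1.3e-08). For the PER1 gene TRAESCS2D02G154300, the Sadash means were 1.23 and 294 CPM and the difference of -2.05 did not pass the test (edgeR adjusted p = 0.325).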

How the data were processed

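RNA-seq of 18 libraries (3 for each of 6 groups of cultivar and stage) was used, of which 6 enter the comparison. The authors used Trimmomatic 0.39 for trimming, STAR 2.7.5a for alignment (reference IWGSC v1.1) and RSEM 1.3.3 for abundance, and the deposited tables give expected counts and TPM for every transcript. Transcript values were added up by high-confidence gene and the sums rounded to whole counts; low-confidence genes stayed out. The deposited TPM served in alternatives only. The test, edgeR 4.0.16, took genes that reached 1 CPM in any library (quasi-likelihood test, TMM, 6 groups in 1 fit, R 4.3.3), and SE is the absolute log2 fold change over the root of F. DESeq2 1.42.0, limma 3.58.1 (TPM on the log2 scale, pseudocount 1 or 0.1), RLE and upper quartile scaling, other filters and thresholds, the 6 libraries alone, low-confidence genes, a replicate block and leaving out each library were alternatives. Totals of high-confidence counts ran from 6675332 to 27463367 over the 18 libraries, and the number of reads limits the precision of low genes; bounds against no counts take 3 counts per library and cover counting error only.

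Checked on simulated counts for this comparison (57877 genes), the test called 14, 38, 47 and 49 of 50 genes changed 2-, 4-, 8- and 16-fold and made 2 false calls. In the simulation only these sets of 50 genes differed between groups, and no library stood apart as Day 7 replicate 3 did. The 2 false calls are therefore no error rate for the calls in the data. Named were the 12 largest described rises and falls with a mean of at least 10 CPM and separate groups, members taken from the 3 called genes of highest level per list and direction, called members of the small embryogenesis families, genes the study names, the 5 most abundant genes per stage, the largest changes without a description and the copies of a triad. Members and lists were chosen with earlier results of these data known, and lists come from the study's tables, some shortened.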

Additional observations from a re-analysis of the deposited data

Results flagged for a closer look

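The change from Day 7 to Day 21 differed between Nanda and Sadash, by edgeR's interaction test at an adjusted p under 0.01 and a difference of at least 1 on the log2 scale, in 44 of the 151 genes named above. Of all tested genes, 16.2% passed these thresholds. Many of the 151 genes were named from lists chosen on changes from Day 0 to Day 7 in Nanda, or for large changes there. Their share and the sign of their differences are therefore no independent result. Each value is the log2 fold change in Nanda minus that in Sadash. Among embryo factors the differences were -2.19, -2.96 and -2.32 for the LFL1 copies TRAESCS3A02G249100, TRAESCS3B02G278000 and TRAESCS3D02G249100, -1.51 for the VP1 copy TRAESCS3D02G412800, -1.31 for the IDEF1 type TRAESCS7B02G230100 and 1.27 for the VAL type TRAESCS2B02G122500. NF-YB genes had -2.83 (TRAESCS6A02G287300), -2.44 (TRAESCS6B02G316600) and -5.04 (TRAESCS6B02G316700). In the AP2 group the values were -2.15 (TRAESCS7A02G495800), -1.31 (TRAESCS7B02G401400), -1.34 (TRAESCS2A02G505600), -2.01 (TRAESCS2B02G534000), -3.35 (TRAESCS2D02G506500), -6.67 (TRAESCS4D02G237300) and, for the BABY BOOM copy TRAESCS3D02G389100, 1.06. WOX genes had -2.74 (TRAESCS5B02G091000), -3.12 (TRAESCS5D02G097400), -3.49 (TRAESCS2B02G117900) and 1.91 (TRAESCS3D02G335500), and GRF genes -2.19 (TRAESCS4D02G020300) and -3.52 (TRAESCS6A02G269600).

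For maturation and reproductive genes the differences were -2.54 (LEA, TRAESCS1D02G369200), -3.21 (dehydrin, TRAESCS6D02G332900), -2.72 (TRAESCS5B02G061600), 1.55 (GAMYB, TRAESCS1B02G318800) and -1.77 (TPD1, TRAESCS4A02G203700). Other regulators had -1.15 (HOX33, TRAESCS5A02G043400), -1.58 (NAC68, TRAESCS3A02G339600) and 6.10 (RNA polymerase II, TRAESCS2A02G558100). In metabolism and wall formation they were -7.63 (invertase, TRAESCS3B02G028500), -2.17 (trehalose, TRAESCS5B02G202200), 1.35 (cellulose, TRAESCS7A02G182200), -1.49 and -1.46 (tricarboxylic acid cycle, TRAESCS3B02G265700 and TRAESCS3D02G237500), and -2.77 for nucleosome assembly (TRAESCS2B02G415900). Chaperone-related genes had -3.74 (TRAESCS5B02G509400) and -2.91 (TRAESCS1A02G280100). The abundant genes had -2.32 (TRAESCS6B02G243700), -1.75 (TRAESCS6D02G196300), -1.72 (TRAESCS6A02G213700) and -1.20 (TRAESCS5D02G020900), and TRAESCS1D02G454400 had -1.20. The value of 21.16 for TRAESCS5B02G473500 is no measured size, since it had no counts on Day 7 in Nanda and none on Day 21 in Sadash. Of the 44 differences, 25 were called in every alternative and 11 were lost without at least 1 of the 6 libraries.

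Of the low-confidence gene models, which the comparison left out, 4429 of 15765 tested changed, 2359 upward and 2070 downward. This is a smaller share than the 34.1% of high-confidence genes that changed in the main fit (21375 of 62692).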

How the results depend on the processing

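With the fold threshold at 2 on the log2 scale, 12237 genes were called (5987 up, 6250 down), and 84, 65 and 117 triads had 3, 2 and 1 copies called. In limma on log2(TPM + 1), 6205 genes fell and 64.9% of the calls were upward, and on log2(TPM + 0.1) the share was 63.7%; the cause was not tested. TPM in place of counts gave differences in share of -0.0264 (A), 0.122 (B), 0.327 (10 most abundant genes) and 0.0242 (100 most abundant genes) percentage points. Without Day 7 replicate 3, a setting added after seeing the data, 110 genes were on. With 1 library left out, 18486 to 20515 genes were called (8090 to 9361 up, 9936 to 11154 down), fits with fewer samples. Replicate numbers did not pair the samples (r of same-numbered deviations -0.01, -0.09 and -0.09), and the replicate block gave 19447 calls. Of 135 called genes named in the text, 117 were called in every alternative but the larger fold threshold, and 9 lost their call without at least 1 library. Depth limits the low genes: 3 counts were 0.234 CPM on Day 7 and 0.182 CPM on Day 21.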
